A study of Mus musculus with 20 samples.

Results

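The mRNA levels of 9 genes of hepatic insulin signalling were followed through fasting and refeeding: the insulin receptor gene Insr, the receptor substrates Irs1 and Irs2, the kinase gene Akt2, the transcription factors Foxo1 and Foxo3, and Trib1, Ccng2 and Sesn1. The 9 were taken by symbol from a table of 29915 genes, and all 9 were among the 13894 genes with enough reads to test. The livers came from male mice on chow. Wild-type mice and mice with a hepatocyte-specific Prox1 K556R knock-in were compared, each either fasted or refed. Prox1 encodes a homeodomain transcription factor of hepatocytes, and in the K556R form a lysine to which the small protein SUMO is attached has been replaced by arginine. Cre recombination at 8 weeks of age switched the knock-in on, and the livers were collected 11 weeks afterwards at Zeitgeber times 15 to 17. The labels do not state the promoter that drove Cre, the length of the fast or the time since refeeding. Sample titles call the genotypes Ctrl and Cre, so the effects of Cre and of K556R cannot be told apart. Each of the 4 combinations of genotype and feeding state has 5 libraries. Of the 20 libraries 14 are labelled batch 1 and 6 batch 2. Batch 2 holds 1 library of each group except K556R refed, of which it holds 3. A name such as 1_b2 stands for replicate 1 of batch 2.

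Insulin binds its receptor on the hepatocyte surface, and the receptor's kinase phosphorylates the adaptor proteins IRS1 and IRS2. These recruit phosphoinositide 3-kinase, whose lipid product brings AKT2, the main AKT kinase of liver, to the membrane. AKT phosphorylates the FOXO factors, which then leave the nucleus, so that genes they drive during fasting, those of glucose production among them, are switched off after a meal. These steps act on proteins, and the data here are mRNA levels of the genes.

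The genes lie on 7 chromosomes. On GRCm38 in GENCODE M21, Insr spans chr8:3122061-3279617 and Irs2 chr8:10984681-11008458, both on the minus strand, and Irs1 spans chr1:82233101-82291416 on the minus strand. Akt2 lies at chr7:27591552-27640826 and Foxo1 at chr3:52268336-52353221, both on the plus strand. Foxo3 lies at chr10:42181841-42276755 on the minus strand, and Sesn1 on the same chromosome at chr10:41809935-41908424 on the plus strand. Trib1 occupies chr15:59648350-59657099 and Ccng2 chr5:93267257-93276231, both on the plus strand. All 9 are annotated as protein-coding, and counts were made per gene, so they do not separate exons, introns or isoforms. Genes on the opposite strand overlap 30.86% of the exon bases of Irs1 (Gm9747), 7.78% of those of Foxo1 (Gm20402) and 2.56% of those of Irs2 (9530052E02Rik). Whether the counting used strand is not stated, so reads from those antisense genes may be part of these 3 counts.

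Short sequences to which fasting and feeding regulators are known to bind were searched for in the promoters of the genes, since most of the genes moved together. RefSeq windows (GRCm38.p6) of 250 bases before to 50 after a start site were matched for 7 of the 9 genes, 11 windows in all; Insr and Trib1 were not matched. A core sequence bound by FOXO factors, GTAAACA, was in 3.65% of all 32851 promoters searched on both strands (4.05% of genes). Among the 7 genes this exact sequence was only in a window of Sesn1, in the transcribed part. Matches to this sequence alone do not count every site that FOXO factors may bind. The core of the cAMP response element, TGACG, was in 20.81% of all promoters and 23.05% of genes. It was in 5 of the 11 windows, those of Irs1, Akt2, Sesn1 and Foxo3. Akt2 and Sesn1 had more windows than the other genes, and so more places for a match. The E-box CACGTG was in 7.15% of all promoters (8.09% of genes) and in the windows of Irs1 and Irs2. CAAAACA, the core of the insulin response element, was added to the search after these windows had been read, for which reason its matches were in part chosen. It was in 6.28% of all promoters (7.2% of genes) and in the windows of Irs1 (2 copies), Irs2 and Ccng2. The stretches from 250 to 11 bases before the start of Irs1 and Irs2 are shown because both hold an E-box beside an insulin response element core, and that of Foxo1, because it held none of the 4 motifs. Capitals mark the motifs, 5′ to 3′ on the strand of the gene. In Irs1 (chr1:82291450-82291689, minus strand) the first run of capitals joins 3 overlapping matches, the CRE core, the E-box and an insulin response element core read from the other strand. In Irs2 (chr8:11008940-11009179, minus strand) the E-box and the insulin response element core are 1 base apart. The RefSeq start site used for Irs2 lies upstream of the GENCODE span given above, so distances to the GENCODE start are larger. The Foxo1 stretch is chr3:52268087-52268326 on the plus strand. A match describes the letters only and does not show that a factor binds there.
Irs1: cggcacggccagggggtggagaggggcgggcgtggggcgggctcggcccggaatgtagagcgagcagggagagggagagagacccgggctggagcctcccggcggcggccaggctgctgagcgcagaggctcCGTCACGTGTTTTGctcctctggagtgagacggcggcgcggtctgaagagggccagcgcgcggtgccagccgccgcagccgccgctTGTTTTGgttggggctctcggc
Irs2: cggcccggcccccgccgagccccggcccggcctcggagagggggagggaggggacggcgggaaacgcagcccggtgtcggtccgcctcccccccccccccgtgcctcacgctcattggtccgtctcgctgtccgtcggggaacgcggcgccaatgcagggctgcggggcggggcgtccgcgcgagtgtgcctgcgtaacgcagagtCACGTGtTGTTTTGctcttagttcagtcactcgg
Foxo1: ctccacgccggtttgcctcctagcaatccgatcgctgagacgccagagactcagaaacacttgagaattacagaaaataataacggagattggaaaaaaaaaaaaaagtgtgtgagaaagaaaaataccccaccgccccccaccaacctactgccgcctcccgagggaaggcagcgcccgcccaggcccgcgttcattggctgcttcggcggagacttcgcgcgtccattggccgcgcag

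Libraries held 33746054 to 50647297 counts, and the lowest count of any of the 9 genes in a library was 79, for Irs2. No pair of libraries of a group agreed within sampling noise (lowest chi-square per degree of freedom 11.7). The labels do not say whether each library came from its own mouse, so p-values measure the spread between these libraries. Levels are given as CPM, which are counts scaled to a common library size with TMM factors. The targeted gene Prox1 was at 185 ± 38.5 CPM in wild type and 105 ± 15.7 in K556R fasted livers, and at 110.1 ± 15.7 and 75.5 ± 12.1 CPM in refed livers (SD, n = 5), and these counts do not read the changed codon. Pck1, a gluconeogenic enzyme gene, had its lowest fasted value at 4871 CPM and its highest refed value at 2393 CPM, so no library went against its feeding label. The summed level of 8 hepatocyte markers was 110401 to 153569 CPM over all libraries, and 7 muscle and fat markers together reached at most 0.187 CPM. In K556R 2 libraries, fasted 1_b1 and refed 1_b1, stood apart, with lymphocyte markers (10 genes) summing to 7.28 and 7.37 CPM against at most 2.58 and 3.17 in the rest of their groups, and proliferation genes (8 genes) to 17.9 and 47.4 CPM against at most 8.38 and 9.64. In bulk liver, fewer cells of a type and less RNA per cell cannot be told apart.

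Refeeding lowered the mRNA of 7 of the 9 genes in wild-type liver, from the receptor through both adaptors to the FOXO factors and Trib1 and Ccng2. Irs2 had the largest fall, to 0.196-fold, and Foxo1 followed at 0.326-fold. Akt2 and Sesn1 did not pass the test, and no gene rose. The same 7 fell in K556R liver. In both genotypes every refed library was below every fasted library of that genotype for each of the 7. These calls come from edgeR's quasi-likelihood test with batch as a term, at an adjusted p under 0.05 over all genes tested. Values given below for batch 2 alone compare 1 refed with 1 fasted library in wild type and 3 with 1 in K556R; their p-values take the spread from the 3 K556R refed libraries only and compare those libraries, not the conditions. Refeeding was a broad change in liver: of all genes tested, 45.1% were called in wild type and 39.9% in K556R. Genes called lower made up 24.2% in wild type and 20.3% in K556R, and genes with all refed libraries below all fasted ones 18.7% and 14.1%. The median change of the 9 genes was −0.93 on the log2 scale in wild type and −0.74 in K556R. The medians of all genes were −0.01 and 0.01. The 9 genes were chosen with earlier results of these data known, so these contrasts with all genes describe them and test nothing.

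**Figure D1:**
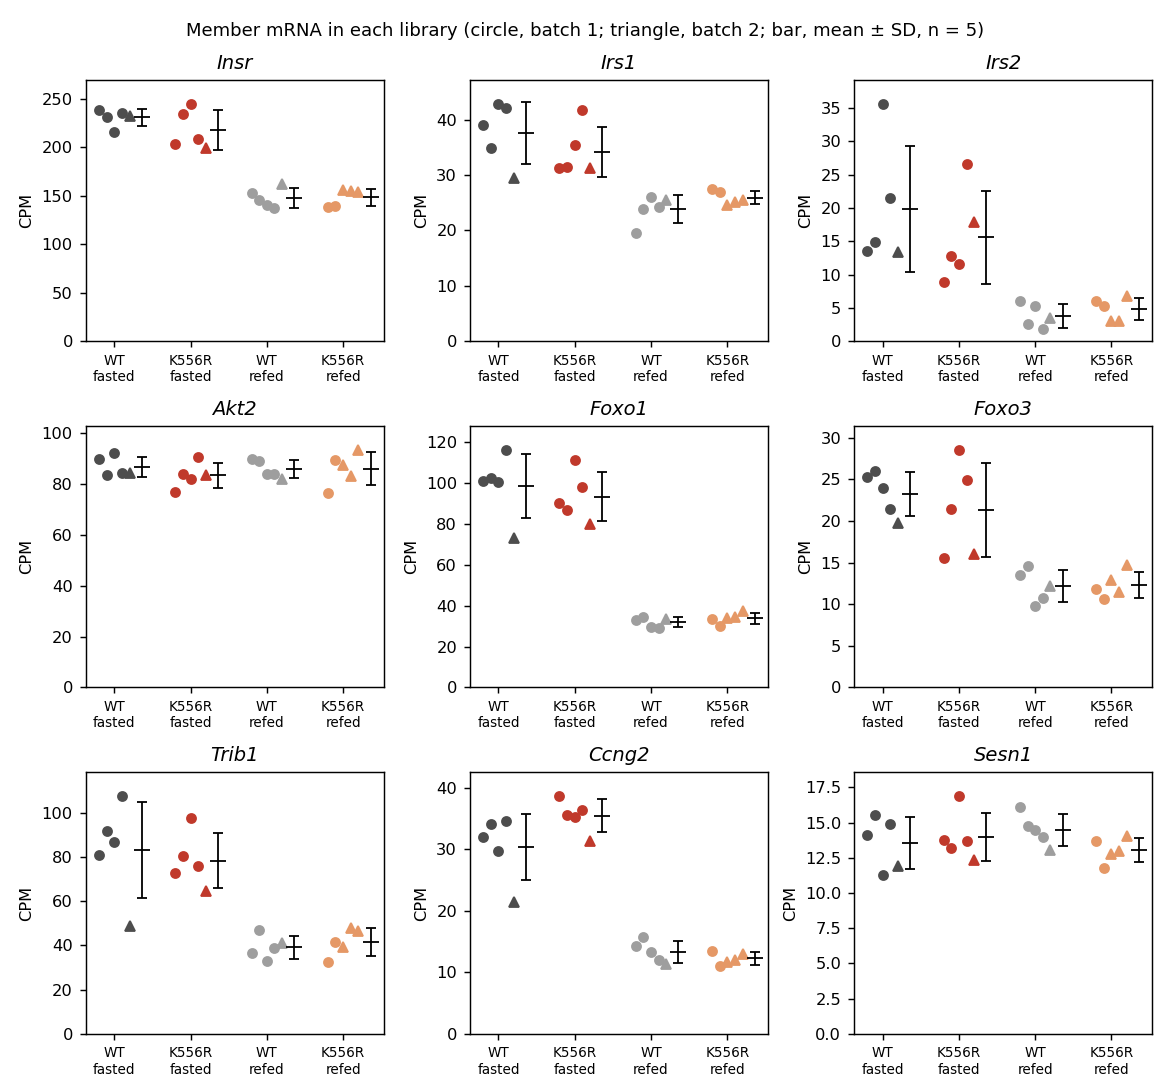
CPM of each gene in each of the 20 libraries (circles, batch 1; triangles, batch 2), with mean ± SD of 5 libraries beside each group. Except in the panels of Akt2 and Sesn1, all refed libraries lie below all fasted libraries of the same genotype.

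Insr encodes the receptor itself. In wild-type fasted livers it stood at 239, 232, 216, 236 and 232 CPM in libraries 1_b1, 2_b1, 3_b1, 4_b1 and 1_b2, an order kept below for all groups but K556R refed. In wild-type refed livers it was at 153, 146, 141, 137 and 162 CPM. The lowest fasted library (216 CPM) was above the highest refed library (162 CPM), and neither group had a library far from the others. K556R fasted livers held 203, 234, 245, 208 and 199 CPM. K556R refed livers, in the order 1_b1, 2_b1, 1_b2, 2_b2 and 3_b2, held 139, 139, 156, 155 and 154 CPM. In this group the 3 batch 2 libraries were the higher ones. Insr fell by 0.65 in wild type (SE 0.066, 0.639-fold, adjusted p = 2.17e-07, edgeR) and by 0.58 in K556R (SE 0.070, 0.670-fold, adjusted p = 2.54e-06) on the log2 scale. In batch 2 alone the K556R value was −0.35 (adjusted p = 0.0219) and in batch 1 alone −0.68 (adjusted p = 0.000103).

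Both adaptor genes fell. Irs1, the substrate also used widely outside liver, was at 39.0, 34.9, 42.9, 42.1 and 29.4 CPM in wild-type fasted and 19.5, 23.9, 26.1, 24.2 and 25.4 CPM in wild-type refed livers. K556R fasted livers held 31.2, 31.4, 35.4, 41.7 and 31.2 CPM, and K556R refed livers 27.4, 26.9, 24.7, 25.1 and 25.5 CPM. The gap between feeding states was narrow in K556R, where the highest refed library reached 27.4 and the lowest fasted library 31.2 CPM. Irs1 changed by −0.65 in wild type (SE 0.096, 0.637-fold, edgeR, adjusted p = 1.61e-05) and by −0.35 in K556R (SE 0.10, 0.787-fold, adjusted p = 0.0099). Its call did not hold in batch 2 alone in wild type (−0.20, adjusted p = 0.364), nor in either batch alone in K556R (−0.36, adjusted p = 0.0518, and −0.31, adjusted p = 0.0555).

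Irs2, the adaptor gene known in liver for its rise in fasting, spread most between libraries. Wild-type fasted livers held 13.6, 14.8, 35.6, 21.5 and 13.4 CPM, with library 3_b1 well above the others, and wild-type refed livers 6.07, 2.54, 5.29, 1.83 and 3.54 CPM. K556R fasted livers held 8.96, 12.8, 11.6, 26.6 and 17.9 CPM, and K556R refed livers 6.01, 5.25, 2.99, 3.11 and 6.75 CPM. The lowest fasted library, 1_b1, is one of the 2 that stood apart, and it was 8.96 CPM where the highest refed library was 6.75. Irs2 fell by 2.35 in wild type (SE 0.39, 0.196-fold, 95% interval 0.110 to 0.349, edgeR, adjusted p = 0.000114). In K556R it fell by 1.62 (SE 0.39, 0.326-fold, 95% interval 0.183 to 0.580, adjusted p = 0.00337), and by 1.82 without the 2 libraries that stood apart (adjusted p = 0.00652). Within batch 1 the values were −2.45 in wild type (adjusted p = 0.0011) and −1.41 in K556R (adjusted p = 0.0808). Within batch 2, where 3 groups have 1 library each and the spread is that of K556R refed alone, they were −1.92 (adjusted p = 0.277) and −2.06 (adjusted p = 0.106).

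Akt2, the kinase gene downstream of the adaptors, ranged from 76.5 to 93.4 CPM over all 20 libraries, and its groups overlapped in every comparison. Its means were 86.7 ± 3.89 and 85.7 ± 3.56 CPM in wild-type fasted and refed livers and 83.3 ± 4.83 and 85.9 ± 6.44 CPM in K556R fasted and refed livers (SD, n = 5). The refeeding change was −0.02 in wild type (95% interval −0.14 to 0.11, adjusted p = 0.84, edgeR) and 0.04 in K556R (95% interval −0.09 to 0.17, adjusted p = 0.611). Of the 9 genes it had the tightest interval, and in both genotypes that interval leaves out changes as large as those of Insr.

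Foxo1, the FOXO factor best known for driving gluconeogenic genes in the fasted liver, had, in wild type, the second largest fall and the lowest p of the 9. It stood at 101, 102, 100.3, 116 and 72.7 CPM in wild-type fasted and at 33.0, 34.4, 29.5, 29.2 and 33.6 CPM in wild-type refed livers. K556R fasted livers held 90.1, 86.7, 111, 97.6 and 79.9 CPM and K556R refed livers 33.5, 29.8, 33.8, 34.4 and 37.3 CPM. The single batch 2 library was the lowest of each fasted group, and the refed libraries of both genotypes lay between 29.2 and 37.3 CPM. Foxo1 fell by 1.62 in wild type (SE 0.10, 0.326-fold, edgeR, adjusted p = 1.13e-09) and by 1.42 in K556R (SE 0.11, 0.374-fold, adjusted p = 1.77e-08). In wild type it ranked 14th of all genes tested by p. Within batches the change was −1.73 and −1.11 in wild type and −1.61 and −1.18 in K556R for batches 1 and 2, all in the same direction.

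Foxo3, a FOXO factor that binds much the same core sequence, was at lower levels and fell less. Wild-type fasted livers held 25.3, 26.0, 24.0, 21.4 and 19.7 CPM and wild-type refed livers 13.5, 14.6, 9.81, 10.8 and 12.1 CPM. K556R fasted livers spread more widely, with 15.5, 21.4, 28.6, 25.0 and 16.0 CPM, and K556R refed livers held 11.8, 10.6, 12.9, 11.4 and 14.7 CPM. In K556R the lowest fasted library (15.5 CPM) was close to the highest refed library (14.7 CPM). The falls were 0.93 in wild type (SE 0.15, 0.525-fold, edgeR, adjusted p = 5.39e-05) and 0.74 in K556R (SE 0.16, 0.597-fold, adjusted p = 0.00121). The K556R change was −1.01 in batch 1 alone (adjusted p = 0.00241) but −0.30 in batch 2 alone (adjusted p = 0.182), which is not past the threshold.

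Trib1 encodes a pseudokinase that guides proteins to degradation and is known in liver for its part in lipid metabolism. It was at 80.8, 91.8, 86.7, 108 and 48.7 CPM in wild-type fasted and 36.6, 46.9, 33.0, 38.6 and 41.2 CPM in wild-type refed livers. The batch 2 fasted library, 48.7 CPM, was only just above the highest refed library at 46.9. K556R fasted livers held 72.7, 80.6, 97.8, 75.7 and 64.7 CPM and K556R refed livers 32.4, 41.5, 39.4, 47.9 and 46.3 CPM. Trib1 fell by 1.07 in wild type (SE 0.16, 0.477-fold, edgeR, adjusted p = 3.03e-05) and by 0.85 in K556R (SE 0.18, 0.556-fold, adjusted p = 0.000758). The batches differed in size: −1.24 and −0.23 in wild type (adjusted p = 5.88e-06 and 0.388) and −1.15 and −0.53 in K556R (adjusted p = 0.000176 and 0.0129) for batches 1 and 2.

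Ccng2 encodes cyclin G2, an atypical cyclin linked to cell cycle arrest and a known FOXO target. It was at 32.0, 34.1, 29.8, 34.6 and 21.4 CPM in wild-type fasted and 14.2, 15.7, 13.3, 12.0 and 11.3 CPM in wild-type refed livers. K556R fasted livers held 38.6, 35.6, 35.1, 36.4 and 31.3 CPM and K556R refed livers 13.5, 11.1, 11.6, 12.0 and 12.9 CPM. Only 1 wild-type fasted library, that of batch 2, was below 29.8 CPM. Ccng2 fell by 1.18 in wild type (SE 0.093, 0.441-fold, edgeR, adjusted p = 1.10e-08) and by 1.43 in K556R (SE 0.098, 0.372-fold, adjusted p = 5.33e-09), where it ranked 12th of all genes tested by p. In batches 1 and 2 alone its change was −1.24 and −0.91 in wild type and −1.57 and −1.35 in K556R.

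Sesn1 encodes sestrin 1, a stress-induced inhibitor of mTORC1 that is also a known FOXO target. Its values ranged from 11.3 to 16.9 CPM over all 20 libraries, and the fasted and refed groups overlapped. Means were 13.6 ± 1.87 and 14.5 ± 1.12 CPM in wild-type fasted and refed livers and 14.0 ± 1.72 and 13.1 ± 0.878 CPM in K556R fasted and refed livers (SD, n = 5). The change was 0.09 in wild type (95% interval −0.09 to 0.28, adjusted p = 0.429, edgeR) and −0.05 in K556R (95% interval −0.25 to 0.15, adjusted p = 0.739).

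The low position of the batch 2 fasted libraries ran through several genes. Wild type fasted 1_b2 was the lowest of its group for Irs1, Irs2, Foxo1, Foxo3, Trib1 and Ccng2, 6 of the 9 genes. K556R fasted 1_b2 was the lowest of its group for Insr, Foxo1, Trib1, Ccng2 and Sesn1. Leaving out wild type fasted 1_b2 took the wild-type log2 change of Trib1 from −1.07 to −1.24 and that of Foxo1 from −1.62 to −1.72. The endothelial marker sum (8 genes) in the wild-type fasted group ran from 80.2 to 135 CPM and in the wild-type refed group from 94.9 to 109.5; 3 of the 8 markers were called lower in refed wild-type liver and 2 of 8 in K556R. Of the 8 macrophage markers 1 was called lower in wild type and none in K556R. The macrophage sum was 228 CPM in wild type fasted 2_b1, where the next library of its group had 93.6, and 141 CPM in K556R refed 1_b1, where the next had 94.3. The hepatocyte marker sum was 137939 to 147221 CPM in K556R fasted and 110401 to 127744 CPM in K556R refed livers, ranges that did not overlap, and 3 of its 8 markers were called lower there. In wild type it was 111407 to 153569 CPM in fasted and 115533 to 122566 CPM in refed livers, with 2 of 8 called lower and 1 higher. Beside these marker counts, 24.2% of all genes tested were called lower in wild type and 20.3% in K556R. The part of these cell type markers in the changes of the 9 genes was not tested.

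The 9 genes were then compared between genotypes within each feeding state and over the average of the states. None of the 9 was called in any of these comparisons by edgeR, and none of the 9 was called for the interaction, which asks whether refeeding acted differently in the genotypes. Across all genes tested, 0% were called in fasted livers, 0% in refed livers, 0.0288% for the average and 0% for the interaction. Prox1 itself was among the genes called for the average, at −0.72 in K556R against wild type (edgeR, adjusted p = 0.00563). At an unadjusted p under 0.05 there were 1136 genes in fasted and 693 in refed livers and 553 for the interaction. None of the 9 genes was called in these comparisons by DESeq2 or limma either, which over all genes called 60 and 2 in fasted livers, 3 and 0 in refed livers, and 2 and 0 for the interaction.

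Among the 9, 1 gene in fasted livers and 1 for the interaction had an unadjusted p under 0.05. Ccng2 was higher in K556R fasted livers by 0.23 (95% interval 0.04 to 0.42, edgeR, adjusted p = 0.501). Its levels were 35.4 ± 2.68 against 30.4 ± 5.37 CPM (SD, n = 5), and the groups overlapped. Without wild type fasted 1_b2 the Ccng2 difference was 0.15. It was 0.16 in batch 1 alone and 0.54 in batch 2 alone, where each fasted group is 1 library. For Irs1 the interaction was 0.31 (95% interval 0.02 to 0.59, edgeR, adjusted p = 1.00), which corresponds to the smaller fall in K556R. That value was 0.39 in batch 1 alone and −0.11 in batch 2 alone, so its sign was not shared by the batches. For Ccng2 the interaction was −0.24 (95% interval −0.52 to 0.03, edgeR, adjusted p = 1.00), the direction of a larger fall in K556R. It was −0.33 in batch 1 alone, −0.44 in batch 2 alone, −0.35 with the replicate block and −0.34 with no batch term, and its adjusted p in these 4 fits was 0.531 to 1.00.

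For the other genes the intervals give the range of genotype differences these data allow. Insr differed by −0.08 in fasted livers (95% interval −0.22 to 0.06) and by −0.02 in refed livers (−0.16 to 0.13). Foxo1 differed by −0.08 (−0.29 to 0.13) and 0.12 (−0.10 to 0.35), and Foxo3 by −0.13 (−0.44 to 0.18) and 0.06 (−0.28 to 0.40). Changes of the size that refeeding made in Foxo1 lie outside its interval. Irs2 had the widest intervals, −0.32 (−1.09 to 0.45) in fasted and 0.42 (−0.45 to 1.29) in refed livers, and both intervals include differences of over 2-fold (0.470-fold and 2.44-fold at their outer ends). The fasted Irs2 difference was −0.02 without wild type fasted 3_b1, −0.59 without K556R fasted 4_b1 and 0.41 in batch 2 alone, so single libraries set its size. The Irs2 interaction, 0.74 (−0.41 to 1.88), had a wider interval still, and it was 0.41 without wild type fasted 3_b1. Trib1 differed by −0.08 (−0.41 to 0.26) and 0.14 (−0.22 to 0.51), Irs1 by −0.14 (−0.33 to 0.06) and 0.17 (−0.04 to 0.38), and Sesn1 by 0.04 (−0.15 to 0.23) and −0.10 (−0.30 to 0.10) in fasted and refed livers. Akt2 differed by −0.06 (−0.18 to 0.06) and 0.00 (−0.13 to 0.13).

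**Figure D2:**
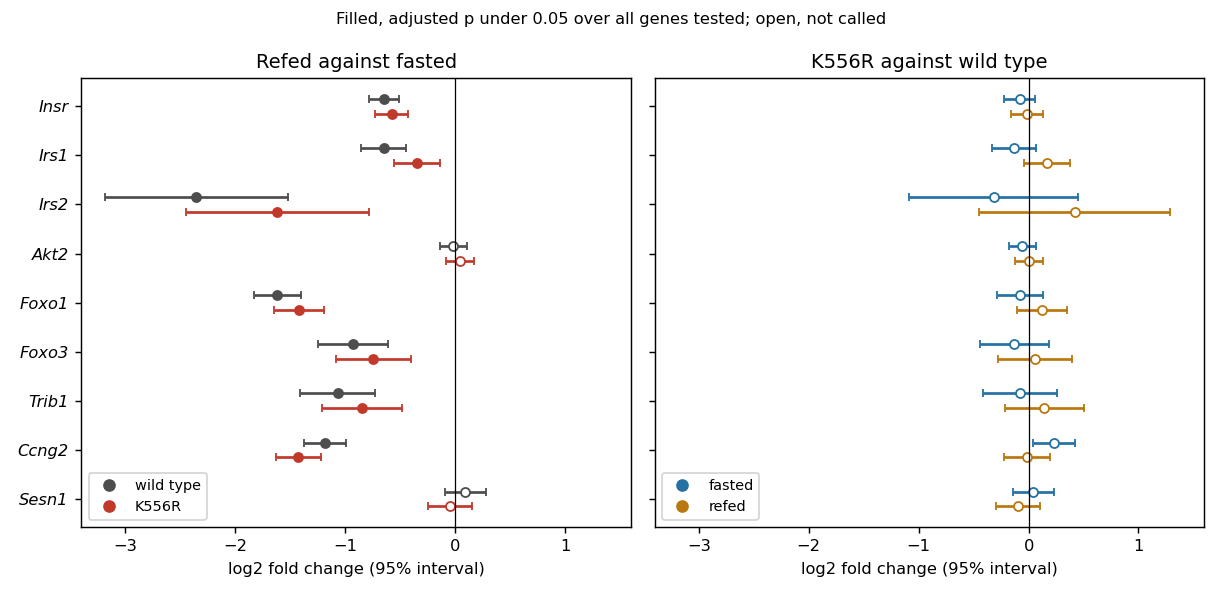
Log2 fold change of each gene with its 95% interval from edgeR, for refed against fasted livers (left, wild type and K556R) and for K556R against wild type (right, fasted and refed); filled points have an adjusted p under 0.05. The 7 genes other than Akt2 and Sesn1 are filled on the left in both genotypes, and no point is filled on the right.

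Levels of different genes were set side by side after division by the summed exon length in GENCODE M21, as CPM per kb. Insr was the most abundant of the 9 in fasted livers, at 16.8 ± 0.65 CPM per kb in wild type and 15.8 ± 1.48 in K556R (SD, n = 5). Trib1, Akt2 and Foxo1 followed in both genotypes, and each overlapped its neighbour in the order. In wild-type fasted livers Trib1 was at 13.3, Akt2 at 12.2 and Foxo1 at 11.4 CPM per kb, and Foxo1 did not overlap Ccng2, the next at 5.56. The lower end was shared by Irs1 (4.12), Sesn1 (3.41), Irs2 (3.13) and Foxo3 (3.07), neighbours that all overlapped.

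In refed livers the order changed. Akt2 was first in both genotypes (12.0 CPM per kb in each), overlapping Insr at 10.7 in wild type and 10.8 in K556R. Trib1 came next at 6.28 and 6.64 and overlapped neither neighbour. Foxo1, at 3.69 and 3.90, overlapped Sesn1, at 3.64 and 3.28. Irs1, Ccng2 and Foxo3 came after these, and Irs2 was last at 0.609 and 0.763 CPM per kb, with no overlap with Foxo3 in either genotype. Sesn1 thus stood at the fifth place of the order in refed livers and at the seventh in fasted livers, with no called change of its own. Which exons are transcribed in liver was not measured, so these lengths are those of the annotation.

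**Figure D3:**
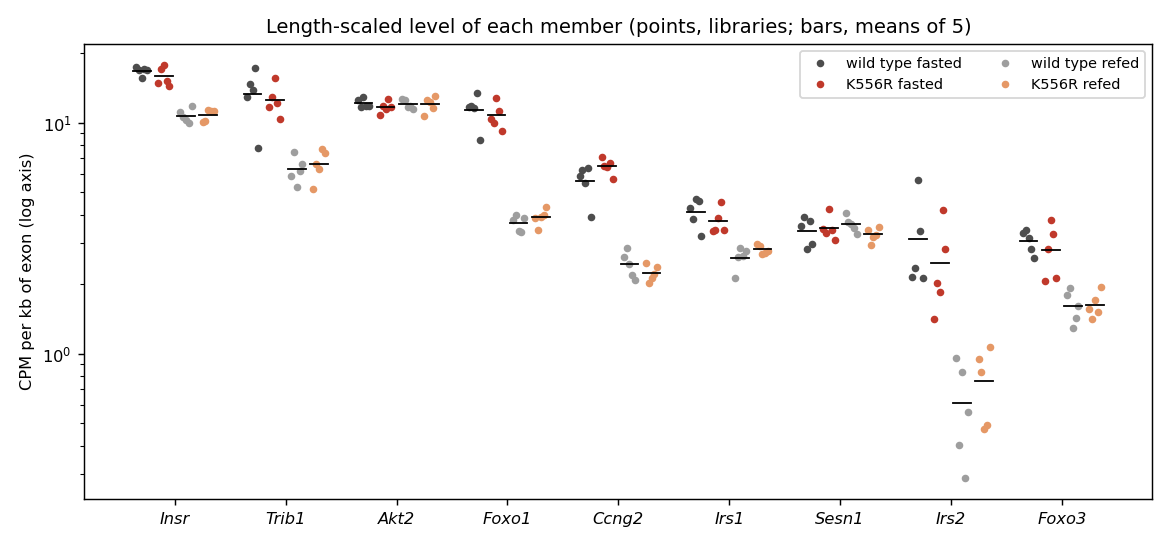
CPM per kb of exon for each gene on a log axis, by group; points are libraries and bars are means of 5. Insr leads in fasted livers, Akt2 leads in refed livers, and Irs2 is lowest in refed livers.

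Ratios within a library do not depend on its total. Per kb, Irs2 mRNA was 0.744 of Irs1 mRNA in wild-type fasted livers (range 0.502 to 1.20) and 0.241 in wild-type refed livers (0.109 to 0.450). In K556R the ratio was 0.646 (0.415 to 0.923) in fasted and 0.268 (0.175 to 0.383) in refed livers. The fasted and refed ranges did not overlap in either genotype, and in 1 fasted library, wild type 3_b1, Irs2 exceeded Irs1. The ratio of Foxo1 to Foxo3 went from 3.71 (3.22 to 4.74) to 2.32 (2.05 to 2.63) in wild type and from 3.96 (3.41 to 5.07) to 2.41 (2.22 to 2.63) in K556R, so Foxo1 stayed the more abundant of the pair in all 20 libraries. These ratios are a description, with no test.

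**Figure D4:**
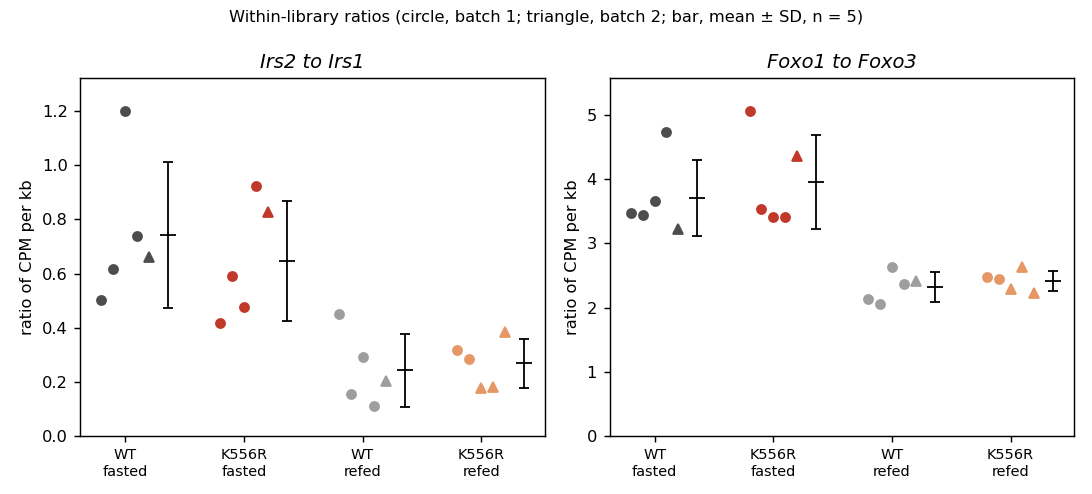
Ratio of Irs2 to Irs1 and of Foxo1 to Foxo3 in each library, from CPM per kb (circles, batch 1; triangles, batch 2; bars, mean ± SD of 5). Refed libraries lie below all fasted libraries of their genotype in both panels.

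The paralogs of the 9 genes were taken from a list of 14, of which 11 could be tested. Counts in this and the following lists can be set beside all genes tested. Of those, 24.2% were called lower in wild type and 20.3% in K556R. In each genotype 6 of the 11 fell with refeeding, none rose and 5 were not called, with a median of −0.21 in wild type and −0.27 in K556R. Sesn2, which like Sesn1 encodes a stress-induced sestrin, fell from 12.6 ± 3.60 to 4.12 ± 0.255 CPM in wild type (SD, n = 5), a change of −1.62 (SE 0.22, edgeR, adjusted p = 6.04e-06), and by 1.65 in K556R. Foxo4, a further FOXO factor, fell by 0.46 and 0.41. Trib3 and Trib2, pseudokinase genes of the Trib1 family, fell by 1.07 and 0.58 in wild type and by 1.24 and 0.55 in K556R. Akt1, a paralog of Akt2, was not called (−0.09 in wild type and −0.09 in K556R).

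Of 22 genes that carry the insulin signal forward, 11 fell, 3 rose and 8 were not called in wild type, and 8 fell, 3 rose and 11 were not called in K556R. Their medians were −0.20 and −0.13. Pdpk1, which encodes the kinase that activates AKT, fell by 0.72 in wild type (SE 0.068, edgeR, adjusted p = 8.25e-08) and by 0.59 in K556R. Gab1, a docking protein of the IRS kind, fell by 0.84 and 0.64, and Pik3ca, a catalytic subunit of phosphoinositide 3-kinase, by 0.66 and 0.56. Shc1, the adaptor towards the Ras pathway, rose by 0.40 and 0.33.

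Of the 21 tested genes that restrain the signal, 13 fell, 1 rose and 7 were not called in wild type, and 12 fell, 3 rose and 6 were not called in K556R, with medians of −0.29 and −0.25. Eif4ebp2, an inhibitor of translation that mTORC1 holds in check, fell by 0.54 in wild type (SE 0.063, edgeR, adjusted p = 9.20e-07) and by 0.38 in K556R. Phlpp1, a phosphatase of AKT, fell by 0.55 and 0.41, Gsk3a, the kinase that inhibits glycogen synthase, by 0.42 and 0.42, and Inppl1, a lipid phosphatase, by 0.43 and 0.34. In both lists more genes fell than rose, and the medians of both were nearer to 0 than that of the 9 genes.

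Of 23 tested genes listed as raised by FOXO1 in liver, 15 fell in each genotype. Whether FOXO1 drives each of them in these livers was not tested. In wild type 2 rose and 6 were not called, and in K556R 1 rose and 7 were not called; the medians were −1.27 and −0.98. Gabarapl1 and Map1lc3b, autophagy genes, fell by 1.27 and 0.89 in wild type and by 1.23 and 0.98 in K556R. Lpin1, which encodes a phosphatidate phosphatase, fell by 3.04 (SE 0.26, edgeR, adjusted p = 8.24e-08) and by 3.46, and Pnpla2, the gene of adipose triglyceride lipase, by 1.71 and 1.74. Igfbp1, a binding protein of insulin-like growth factors secreted by fasted liver, fell from 302 ± 222 to 19.8 ± 9.50 CPM in wild type (SD, n = 5), a log2 change of −3.72, and it fell by 3.00 in K556R. Against this direction Gadd45a, a growth arrest gene, rose by 1.84 and 2.10, and Cited2, a transcriptional cofactor gene, rose by 0.55 in wild type (0.36 in K556R, not called). Ppargc1a, a coactivator gene on this list, is listed at 0 in all 20 libraries and could not be tested; whether the counting covered this gene is not known, so the 0 is not a measure of its expression.

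Of 15 genes that insulin is known to raise in liver, 14 rose in wild type, and 13 of 15 rose in K556R, with medians of 1.89 and 1.21. Of all genes tested, 45.1% were called in wild type, 24.2% as lower and the rest as higher. In K556R 39.9% were called, 20.3% as lower and the rest as higher. Insig1, which encodes a sterol-sensing retention protein of the endoplasmic reticulum, went from 202 ± 30.4 to 751 ± 34.8 CPM in wild type (SD, n = 5), a rise of 1.89 (SE 0.11, edgeR, adjusted p = 5.43e-10), and rose by 1.77 in K556R. Acly and Fasn, enzymes of fatty acid synthesis, rose by 2.55 and 3.84 in wild type and by 2.17 and 2.88 in K556R. Srebf1, the lipogenic transcription factor gene, rose by 2.45 and 2.48. No gene of these 5 lists was called between the genotypes or for the interaction. The median genotype difference of the insulin-raised genes in refed livers was −0.37, against 0.02 over all genes, with none of the 15 called. It was 0.16 in fasted livers and −0.03 for the average. These values include the batch term, and batch 2 holds 3 K556R refed libraries against 1 of each other group. Mean CPM in K556R and wild-type refed livers was 628 and 751 for Insig1 and 736 and 875 for Acly. For Fasn it was 2032 and 2080, and for Srebf1 445 and 366. The part of batch in the −0.37 was not tested.

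**Figure D5:**
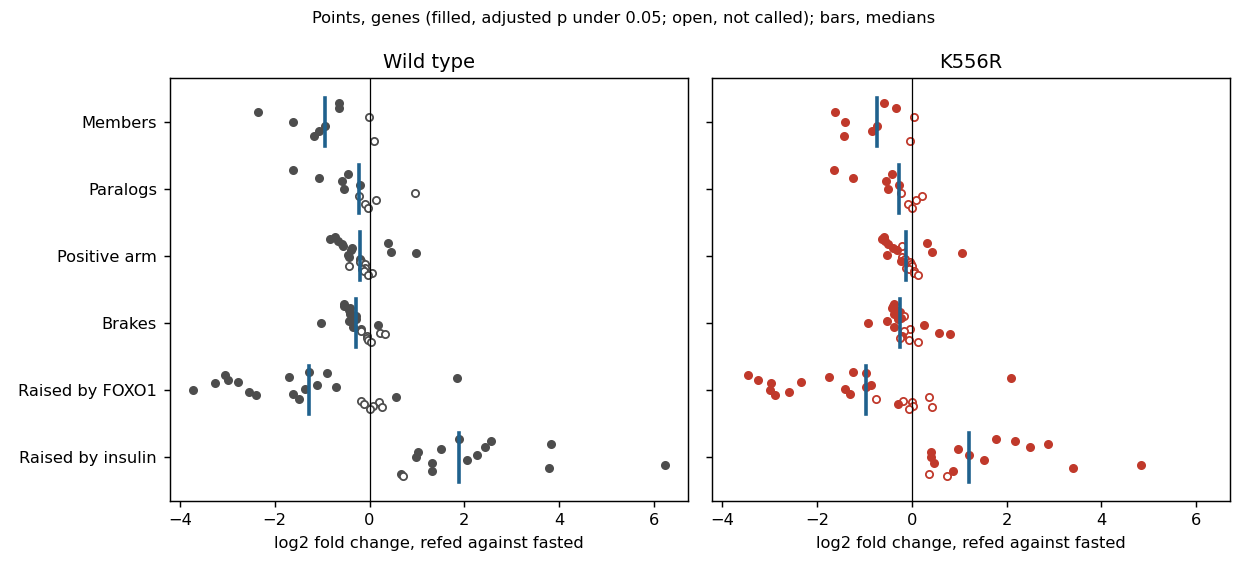
Log2 fold change of refed against fasted livers for the 9 genes and the tested genes of 5 lists, in wild type (left) and K556R (right); filled points have an adjusted p under 0.05 and bars are medians. Medians lie below 0 for every list except the genes raised by insulin, at 1.89 and 1.21.

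For each of the 9 genes, the genes whose log2 CPM ran most nearly with it over the 20 libraries were looked up among 9465 genes. These correlations mostly span the gap between fasted and refed livers, which the libraries share, so the value after removing group and batch means is given beside each, and no p. Foxo1 ran with N4bp2l1 (Pearson r = 0.994, 0.924 after removal), Tmem131 (0.992, 0.842) and the carnitine transporter gene Slc22a5 (0.988, 0.763). Insr ran with the ubiquitin ligase gene Itch (0.982, 0.872), with Cdk13 (0.981, 0.772) and with Ppara (0.981, 0.702), which encodes a nuclear receptor of the fasting response. Trib1 ran with the phosphatase gene Ptp4a1 (0.970, 0.895), Ell2 (0.967, 0.854) and Cln8 (0.965, 0.845). For Ccng2 the nearest were Hnf4a (0.983, 0.571), Pfkfb2 (0.979, 0.631) and Baiap2l1 (0.979, 0.656), so much of that likeness was the feeding gap.

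Foxo3 ran with Mia3 (0.957, 0.787), Adipor1 (0.957, 0.809) and Brd1 (0.954, 0.833). The adaptor genes had different neighbours: Irs1 had Supt6h (0.928, 0.656), Polr1c (0.925, 0.572) and Cep120 (0.924, 0.572), and Irs2 had Ctsf (0.943, 0.767), Cpne2 (0.937, 0.804) and Zkscan14 (0.935, 0.757). Akt2 and Sesn1, with no feeding gap, had lower values over the libraries. Akt2 ran with Vars2 (0.873), Higd2a (0.864) and Gpx1 (0.863), and these rose to 0.917, 0.911 and 0.889 once group and batch means were removed. Sesn1 had Prkag2 (0.670, 0.747), Saal1 (0.662, 0.695) and Zfp619 (0.625, 0.666), the lowest of the 9 before removal. After removal the values of Irs1 and Ccng2 were lower.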

How the data were processed

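Poly-A RNA of mouse liver was sequenced in 20 libraries, and the authors deposited 1 table of whole-number read counts per gene, not normalized. The submitters' processing notes name STAR, HTSeq, TopHat, STAR-Fusion, DESeq2, edgeR and the build mm10; the counting tool, annotation and strand option were not given in the sources used here. Genes were filtered with filterByExpr (minimum count 10, minimum total 15), scaled by TMM and fitted in edgeR 4.0.16 (R 4.3.3) with group and batch terms on all 20 libraries; robust quasi-likelihood tests were adjusted by Benjamini-Hochberg over all genes tested, with a threshold of 0.05. Intervals are 95%. The test was first run on simulated counts with no batch effect and far fewer changed genes than were called here, equally up and down. Those settings differ from these data, so that run does not show how the test performs on them.

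The 9 genes and all lists were chosen with earlier results of these data known. Of each pathway list the 4 genes with the lowest p in wild-type refeeding were named, and of each of the 9 genes the 3 most alike among genes with a mean of at least 1 log2 CPM (prior count 2). Akt1, Gadd45a, Cited2 and Ppargc1a were named after their values were seen. Alternatives were other scalings, filters and models, DESeq2 1.42.0, limma 3.58.1 with quality weights, each batch alone, a replicate block and libraries left out. A planned search of the proteins for the AKT consensus was not run.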

Additional observations from a re-analysis of the deposited data

How the results depend on the processing

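In wild type 7 of the 9 genes were called lower with refeeding under 33 of 34 alternatives, and 4 in batch 2 alone. In K556R 7 were called under 31 of 34, 5 in batch 1 alone, 4 in batch 2 alone and 6 with the replicate block. Batch 2 alone has 1 library in 3 of the 4 groups, which are assumed to vary like K556R refed. Leaving out each library in turn gave 7 in both genotypes every time. Genotype and interaction calls were 0 for the 9 genes under every alternative run. With the replicate block the count was 7 in wild type, and in K556R the gene lost was Irs1 (−0.27, adjusted p = 0.0664, edgeR). Libraries with the same repeat label correlated in their deviations from the group means at −0.37 to 0.65 (median −0.06, 24 pairs). For libraries with different labels the range was −0.52 to 0.41 (median −0.03, 60 pairs). The value of 0.65 was between K556R fasted 1_b1 and K556R refed 1_b1, the 2 libraries that stood apart. Whether the labels pair the samples cannot be told from these values. For single genes, 592 refeeding values kept their side of the threshold, 9 kept only their direction, and 11 values that were not called changed sign. Of the genotype and interaction values, none called, 83 changed sign and 1123 did not. Irs2 had the widest intervals. Its lowest count in a library was 79, and its wild-type fasted libraries ran from 13.4 to 35.6 CPM.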
